A study of Mus musculus with 2 samples.

Results

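The genes described here encode the actin filaments of the cell, the myosin motors that pull on them, the proteins that regulate, crosslink and anchor them, and signalling and transcription proteins that control filament assembly and transcription of these genes. They were given as 43 mouse gene symbols, and every probe set of the array annotated with exactly 1 of these symbols was taken. This gave 111 of the 45101 probe sets and 41 of the 18193 named genes. No probe set carried the symbols Mkl1 or Rock2. The measured culture was of superficial zone cells, the flattened chondrocytes at the surface of articular cartilage, taken from femur and tibia joints of 4-day-old (postnatal) ICR mice and grown in DMEM with 10% serum. The control group was 1 culture without retinoic acid, and the treated group was 1 culture kept for 24 h with 10 μM retinoic acid, the active metabolite of vitamin A. RNA of each was read on 1 Affymetrix mouse genome array. The labels give no genetic modification, and they do not say how many animals were pooled or whether both cultures came from 1 preparation.

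With 1 array per group no difference has a replicate check and no test was possible, so each ratio describes these 2 arrays. Each log2 ratio is retinoic acid over control. The values are linear MAS5 signals, the Affymetrix summary of matched and mismatched probes in 1 probe set. A gene is given by its brightest probe set, and it was counted as measured when its signal was above the median of its array (26.5 in control, 29.7 with retinoic acid) on at least 1 array. Signals of different probe sets are not read as relative expression of their genes, and brightness serves only to choose, bin and sum probe sets. The only repeat measure was the scatter between probe sets of 1 gene within the same RNA, an SD of 0.30 on the log2 scale over 4993 genes, which holds no variation between cultures.

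The arrays were checked first for genes that define the cells and the treatment. All 8 chondrocyte markers read were above the array median on both arrays, and all 8 were lower with retinoic acid, from Comp (9775 to 7688) to Acan, which encodes aggrecan (5066 to 157). Sox9, the transcription factor gene of chondrocytes, went from 1024 to 94.8, Col2a1 from 9538 to 7366, and Prg4, which encodes lubricin, from 1920 to 1148. Of 5 superficial zone markers 4 were measured and all 4 were lower. In a culture of mixed cells, fewer cells of a type and less RNA per cell cannot be told apart. The retinoic acid targets Cyp26a1, Cyp26b1, Rarb and Tgm2 were between 31.9-fold and 115-fold higher, those of Cyp26a1 and Rarb as lower bounds. The trimmed mean signals were 183 and 193, a ratio of 1.06, and over the 18 hybridisation spike-ins the median ratio was 1.05. The spike-ins added before labelling had median ratios between 0.578 and 0.909. The part of sample loading in any ratio below was not tested.

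As background, actin monomers polymerise into filaments, and myosin II filaments pull on them once the regulatory light chain has been phosphorylated by myosin light chain kinase. Tropomyosins, caldesmon and calponins lie along the filament and regulate that contact, while vinculin, talin, zyxin and filamins tie filaments to adhesions and to each other. The GTPase RhoA, through its kinases, raises both filament assembly and contraction, and the loss of free actin monomer releases the coactivators MRTF-A and MRTF-B to bind SRF, which switches on many of these same genes through a DNA element called the CArG box. In cultured chondrocytes this system is known for its link to cell shape, since spread cells with thick filament bundles lose chondrocyte character.

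Of the 41 genes with a probe set, 38 were measured, and 28 of the 38 (73.7%) had a higher signal with retinoic acid, beside 51.6% of all 11884 measured genes. The higher side was led by Tpm1, Myl9, Mylk, Rgs5, Actg2 and Synpo2, the 6 genes at least 2-fold higher, and the lower side by Des, the 1 gene at least 2-fold lower. Those counts are 15.8% and 2.63% of the measured members, beside 6.54% and 4.34% of all measured genes. At least 1.5-fold, 14 members (36.8%) were higher and 3 lower, beside 14.3% and 11.4% of all measured genes. The median log2 ratio was 0.36, beside 0.017 over all measured genes. Synpo2 was measured through the retinoic acid array alone. Among the 37 genes above the median on both arrays 27 were higher, beside 51.3% of the 10722 genes that pass the same filter, and 5 were higher past 2-fold, beside 6.03%. Myh11, Lmod1 and Myocd were below the array median on both arrays and have no ratio.

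**Figure D1:**
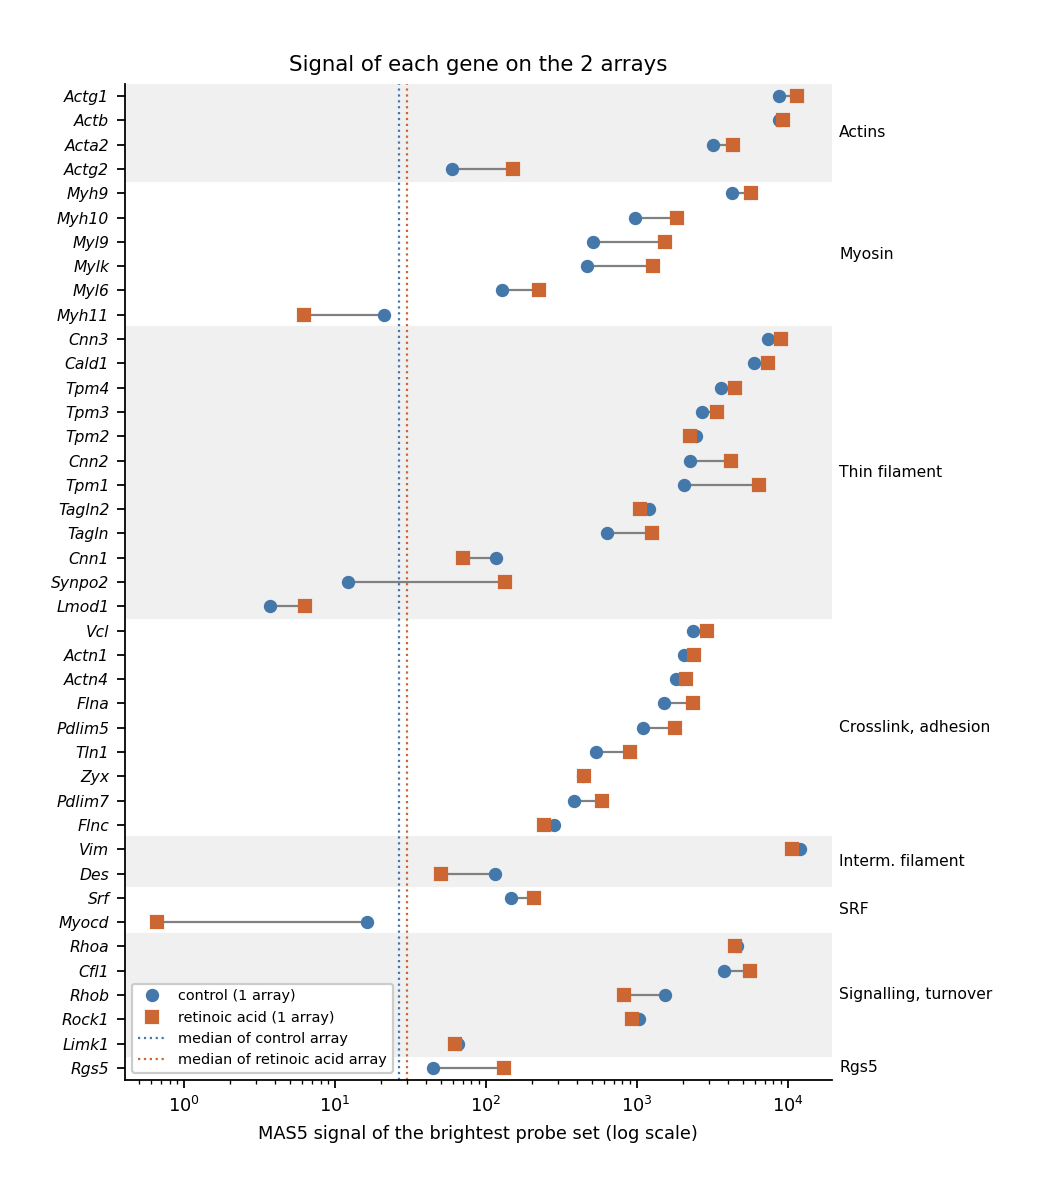
Signal of the brightest probe set of each of the 41 genes (log axis) on the control array (circles) and the retinoic acid array (squares), 1 array each, grouped by role; dotted lines are the medians of the arrays. Tpm1, Myl9 and Mylk are well above both medians and differ widely between the arrays, while Synpo2, Rgs5 and Actg2 start near or below the median.

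The share of higher genes was above that of all genes in each range of control signal. Among genes with a control signal above 2000, 13 of 16 members were higher, beside 45.6% of 756 genes, and the median log2 ratio was 0.31, beside −0.036. From 500 to 2000, 7 of 10 members were higher, beside 46.3% of 2683 genes, with medians of 0.66 and −0.039. Below 500, 8 of 12 were higher, beside 53.8% of 8445 genes, with medians of 0.56 and 0.042. The brightest range held 1 member at least 2-fold higher, Tpm1, where 1.32% of all genes in that range were that far up. In the middle range it held for Myl9, beside 3.21%, and in the lowest for Mylk, Actg2, Rgs5 and Synpo2, beside 8.06%.

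**Figure D2:**
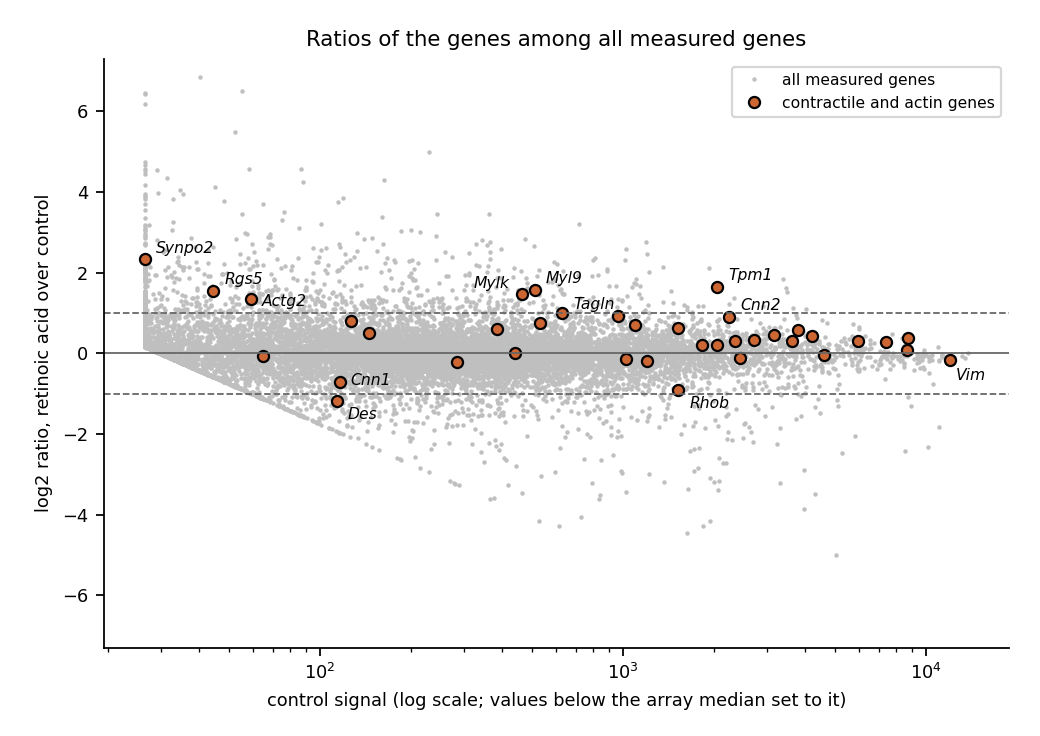
Log2 ratio of retinoic acid over control against control signal (log axis) for all 11884 measured genes (grey) and the 38 measured contractile and actin genes (filled circles); dashed lines mark 2-fold, and the slanted lower edge is set by the median below which signals were raised. Tpm1, at a control signal of 2045, is 1 of 10 genes among the 756 above 2000 that were at least 2-fold higher.

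The promoter sequences of these genes show where SRF could bind by sequence. RefSeq promoters (build GRCm38.p6, 250 bases before to 50 after the annotated start) were matched for 36 of the 43 symbols. No promoter was matched for Actg2, Actb, Myh11, Tagln, Mkl1, Myocd and Rock1, so these were not searched. The CArG box, searched on both strands as 2 C, 6 A or T, and 2 G, was in 6 of these 36 genes (16.7%), beside 1.81% of all 27025 genes with a promoter and 1.54% of the 9621 that were measured. Many of these genes are textbook SRF targets, so the share describes the list as it was chosen. The stretches around the boxes are shown 5′ to 3′ on the gene's strand with the box in capitals. These are the genes among the 36 searched whose window carries the full element.
Myl9, chr2:156775273-156775342, plus strand: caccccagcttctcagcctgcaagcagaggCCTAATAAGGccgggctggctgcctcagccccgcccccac
Cnn2, chr10:79988514-79988583, plus strand: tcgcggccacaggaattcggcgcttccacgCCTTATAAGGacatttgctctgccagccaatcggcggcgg
Myl6, chr10:128493020-128493089, minus strand: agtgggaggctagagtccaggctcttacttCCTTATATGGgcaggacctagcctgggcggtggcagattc
Srf, chr17:46556185-46556274, minus strand: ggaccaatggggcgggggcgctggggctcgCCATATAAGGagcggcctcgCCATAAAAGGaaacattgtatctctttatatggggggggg
Actg1, chr11:120348546-120348615, minus strand: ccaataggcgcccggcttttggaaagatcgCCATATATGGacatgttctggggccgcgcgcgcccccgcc
Vcl, chr14:20929148-20929210, plus strand: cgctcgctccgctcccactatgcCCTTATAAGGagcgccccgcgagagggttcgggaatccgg

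The boxes began between 50 bases (Myl6) and 227 bases (Vcl) before the start, and Srf itself had 2 of them, at 82 and 62 bases. With 1 of the 6 inner bases allowed to be C or G, Acta2, Tpm3 and Flnc joined, making 9 of 36 (25.0%), beside 11.3% of all genes. The Acta2 stretch, chr19:34255374-34255487 on the minus strand, is given because it holds such a pair in the smooth muscle actin gene, 84 and 34 bases before the start.
Acta2: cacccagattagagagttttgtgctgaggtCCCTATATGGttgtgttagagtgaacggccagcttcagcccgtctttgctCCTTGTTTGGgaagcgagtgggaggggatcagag

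On their brightest probe sets the 6 genes with a full box had a higher signal with retinoic acid, with a median log2 ratio of 0.66, beside 19 of 28 and 0.31 for the measured members whose window had none. For Srf the second probe set was at −0.049, so its direction rests on 1 of its 2 probe sets. The name of the higher Srf probe set marks it as shared by several transcripts, as does that of the only Actg1 probe set. For Vcl the second probe set was at 0.0073. For Myl6 the probe set used had a control signal of 127. The brighter Myl6 probe sets shared with other symbols were at 0.11 and 0.13. Srf and Myl6 are the middle values of the 6 genes, so the median of 0.66 depends on which of their probe sets is read. Over the whole array the 148 measured genes with a box had a median log2 ratio of −0.021, beside 0.017 for the 9473 without. Of the 148, 18 (12.2%) were higher past 2-fold and 8 (5.41%) lower past 2-fold, beside 6.06% and 4.12% of those without. A direct repeat bound by retinoic acid receptors, AGGTCA repeated after a gap of 5 bases, was searched on both strands as an exact match. It was in 0 of the 36 windows and in 3 of all 27025 genes. An exact match is so rare that the 0 says nothing about receptor sites in these genes, and variants of the repeat were not searched.

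**Figure D3:**
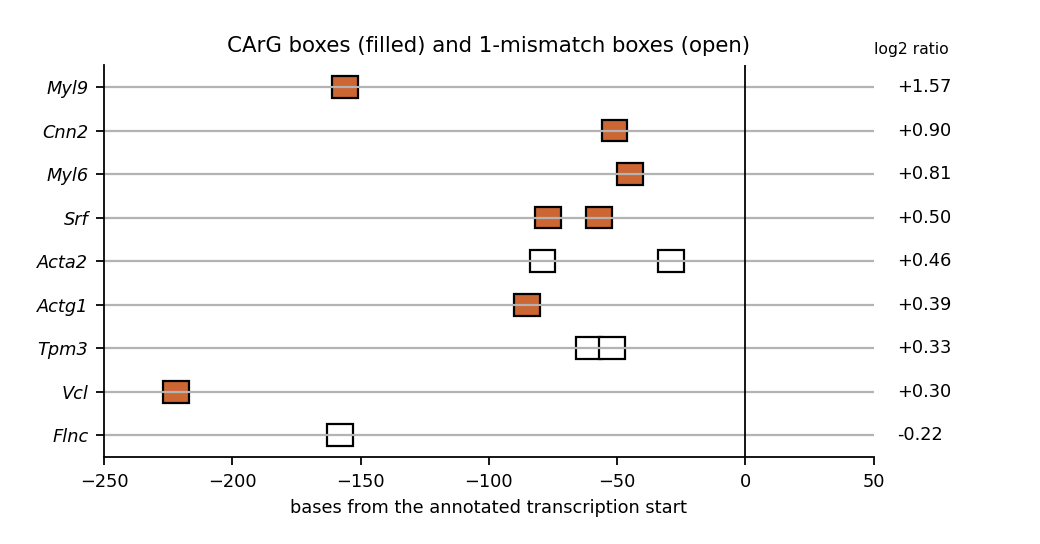
Position of full CArG boxes (filled) and boxes with 1 inner C or G (open) from 250 bases before to 50 after the annotated start, for the 9 genes that have one, ordered by log2 ratio of signal (right). The 6 genes with a full box have ratios from 0.30 (Vcl) to 1.57 (Myl9), and Flnc, with an open box, is at −0.22; the boxes of Tpm3 lie before 2 different starts.

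The role groups below are small, with 11 measured genes at most. Their counts are read beside the shares of all measured genes, 51.6% higher and 6.54% higher past 2-fold. The actins were all higher, with a median log2 ratio of 0.42 over 4 genes. Actb, the cytoplasmic beta actin, had a signal of 8673 in control and 9218 with retinoic acid, a 1.06-fold difference. Its dimmer probe set went from 5768 to 7325, and the 3 control probe sets for the same gene, which read its 3′ end, middle and 5′ end, gave log2 ratios between 0.14 and 0.25. Actg1, the cytoplasmic gamma actin, went from 8758 to 11457, which is 1.31-fold higher. Acta2, the smooth muscle alpha actin, went from 3165 to 4340, 1.37-fold higher. The names of this Acta2 probe set and of the only Actg1 probe set mark them as shared by several transcripts. The other 2 Acta2 probe sets were below the array median on both arrays. Actg2, the enteric smooth muscle actin, was 2.54-fold higher, from 59.1 to 150.0, and has no other probe set. With signals below the 70th percentile raised to it, its log2 ratio was 0.30 in place of 1.34.

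All 5 measured myosin genes were higher, with a median log2 ratio of 0.93 and 2 of them past 2-fold. Myl9, the regulatory light chain, went from 512 to 1522, 2.97-fold higher. Mylk, the kinase that phosphorylates that light chain, went from 465 to 1280, 2.75-fold higher. Its other probe sets went from 281 to 1083 and from 36.7 to 106, so each of the 3 was past 2-fold. Myh10, the heavy chain of nonmuscle myosin IIB, went from 964 to 1834, 1.90-fold higher. Myh9, the heavy chain of nonmuscle myosin IIA, went from 4227 to 5678, 1.34-fold higher, and its 3 dimmer probe sets above the median had log2 ratios between 0.44 and 0.60. The single Myl6 probe set, for the essential light chain, went from 127 to 222, 1.75-fold higher. A further pair of probe sets is annotated with Myl6 and 2 other symbols and was left out, and these shared probe sets had log2 ratios of 0.11 and 0.13. Myh11, the heavy chain that defines smooth muscle, had signals of 21.1 and 6.23, both below the median.

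The thin filament regulators went both ways within families, with 8 of 11 measured genes higher and a median log2 ratio of 0.31. Tpm1, a tropomyosin expressed in muscle and nonmuscle cells, went from 2045 to 6405, 3.13-fold higher, at the 97.4th percentile of ratios over all measured genes. A second bright probe set went from 1757 to 5990, 3.41-fold higher. Tpm3 and Tpm4, tropomyosins of the cytoskeleton, were 1.25-fold and 1.24-fold higher, from 2703 to 3387 and from 3624 to 4480. For Tpm2 the brightest probe set went from 2444 to 2258, while the other 3 had log2 ratios of 0.19, 0.26 and 1.02. The probe sets of Tpm2 therefore disagree in sign and the gene has no direction here.

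The calponin and transgelin paralogs also differed. Cnn1, the smooth muscle calponin, went from 116 to 70.5, 1.65-fold lower, whereas Cnn2, a calponin of nonmuscle cells, went from 2237 to 4163, 1.86-fold higher. Cnn3, the acidic calponin, went from 7411 to 9000 on its brightest probe set, a log2 ratio of 0.28. All 6 Cnn3 probe sets were higher, with log2 ratios up to 1.77 on one with a control signal of 1584. All but 1 of them bear names that mark probes able to bind other transcripts, and the remaining one went from 3673 to 5389. Tagln, the transgelin (SM22 alpha) of smooth muscle, went from 632 to 1259, 1.99-fold higher and so just short of 2-fold. Tagln2, its widely expressed paralog, went from 1205 to 1049, 1.15-fold lower, and its second probe set above the median from 973 to 674.

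Cald1, which encodes caldesmon, went from 5965 to 7371, 1.24-fold higher, and its dimmer probe sets above the median had log2 ratios between 0.39 and 0.77. Synpo2, an actin bundling protein of muscle Z-discs, went from 12.1, below the control median, to 133, at least 5.02-fold higher. Of its other 3 probe sets, 2 passed the median with retinoic acid alone as well. Synpo2 was past 2-fold in 8 of the 10 other settings in which it could be read, with log2 ratios from 0.13 to 3.46. Lmod1, an actin nucleator of smooth muscle, had signals of 3.68 and 6.31, both below the median.

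**Figure D4:**
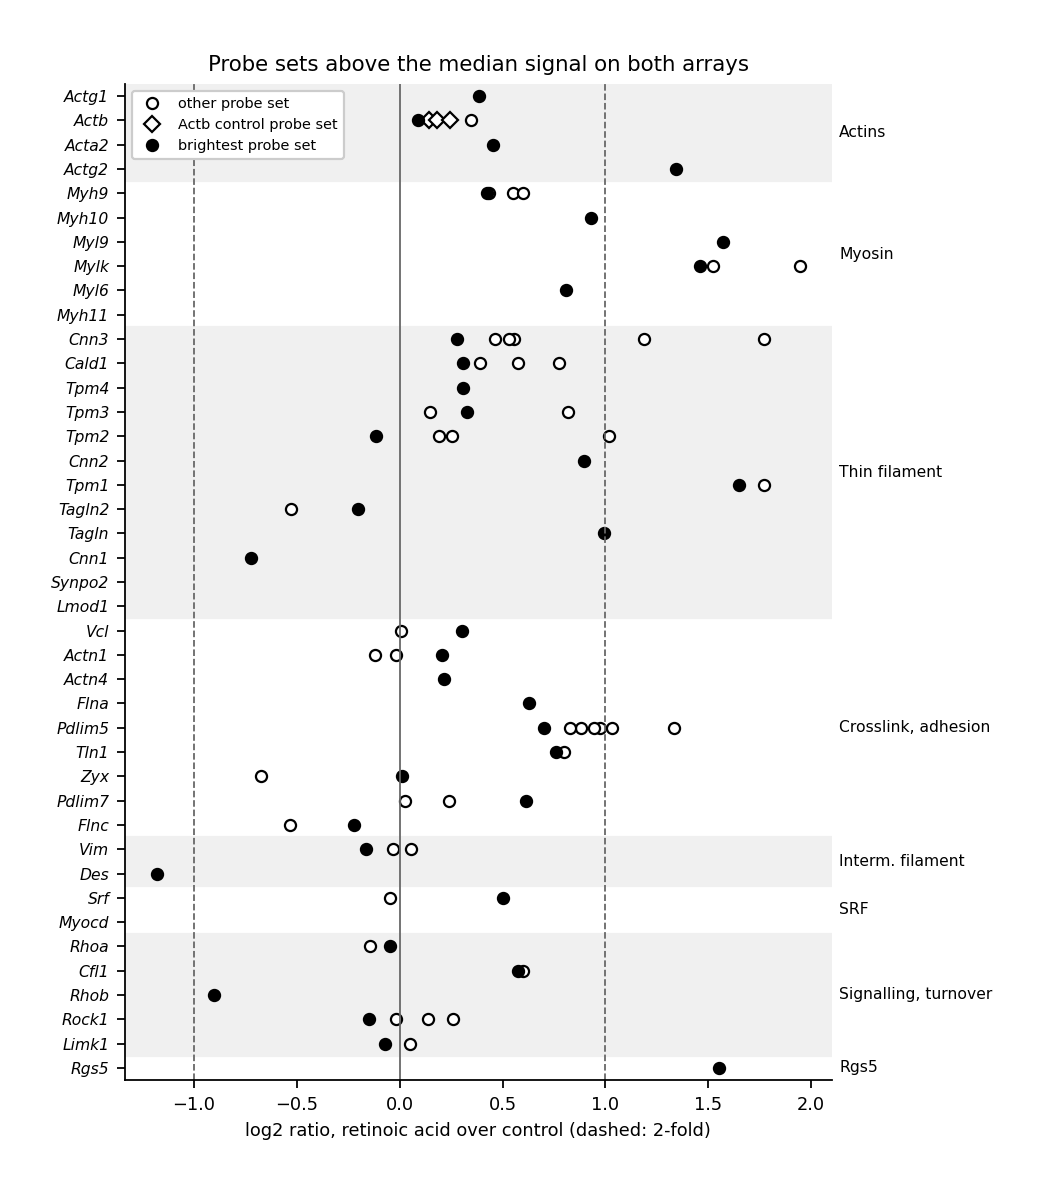
Log2 ratio of retinoic acid over control for each probe set that exceeded both array medians, by gene and role; the brightest probe set is filled and control probe sets for Actb are diamonds. All probe sets of Tpm1 and Mylk shown lie past 2-fold, those of Pdlim5 lie between 0.70 and 1.33, and those of Tpm2 fall on both sides of 0.

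Among crosslinkers and adhesion proteins 8 of 9 were higher, 0 were past 2-fold, and the median log2 ratio was 0.30. Tln1, talin, which couples integrins to actin, went from 532 to 900, 1.69-fold higher. Pdlim5, a PDZ and LIM domain protein that binds alpha-actinin, went from 1099 to 1787, 1.63-fold higher, and all 7 of its probe sets were higher, with log2 ratios from 0.70 to 1.33. Flna, the widely expressed filamin, went from 1518 to 2347, 1.55-fold higher, whereas the muscle filamin Flnc went from 283 to 243, 1.17-fold lower. Pdlim7 went from 384 to 587, 1.53-fold higher, but its dimmer probe sets had log2 ratios of 0.24 and 0.027. Vcl (vinculin, 2340 to 2890) and the alpha-actinins Actn1 (2051 to 2369) and Actn4 (1824 to 2121) were between 1.15-fold and 1.24-fold higher. The dimmer probe set of Vcl was at a log2 ratio of 0.0073, and those of Actn1 were at −0.016 and −0.12. Zyx, zyxin, was 441 and 444, with −0.67 on its dimmer probe set.

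The intermediate filament genes were both lower on their brightest probe set. Des, desmin, the intermediate filament of muscle, went from 114 to 50.3, 2.27-fold lower. Its second probe set was below the median on both arrays, and with the array median added to every signal the log2 ratio was −0.81 in place of −1.18. Vim, vimentin, the intermediate filament of mesenchymal cells, went from 11980 to 10686, 1.12-fold lower, and its other probe sets had log2 ratios of −0.032 and 0.056. All 3 Vim probe sets were above 8000 on both arrays.

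Srf, the serum response factor, went from 145 to 206, 1.42-fold higher, on a probe set whose name marks it as shared by several transcripts. Its second probe set, without such a name, went from 120 to 116. Myocd, myocardin, the SRF coactivator of smooth and cardiac muscle, had signals of 16.3 and 0.659, both below the median. The symbol Mkl1 was not found, but RefSeq lists it as an older name of Mrtfa, which encodes MRTF-A. The Mrtfa probe set, outside the rule, went from 290 to 235, 1.24-fold lower.

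Among the 5 measured signalling and filament turnover members only Cfl1 was higher on its brightest probe set, and the median log2 ratio was −0.072. Cfl1, cofilin, which severs filaments, went from 3783 to 5635, 1.49-fold higher, and its second probe set gave a log2 ratio of 0.60. Rhob, an immediate early gene, went from 1522 to 813, 1.87-fold lower. Rhoa, the main GTPase of stress fibre assembly, was 4621 and 4470, with −0.14 on its second probe set. Rock1, its kinase, was 1023 and 922, and its 4 probe sets above the median had log2 ratios between −0.15 and 0.26. Limk1, the kinase that inactivates cofilin, was 65.0 and 61.9.

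Rgs5, a regulator of G protein signalling that is abundant in pericytes, went from 44.5 to 130, 2.93-fold higher. Its other 3 probe sets were below the median on both arrays. With signals below the 70th percentile raised to it, its log2 ratio was 0.10.

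Probe sets of the same gene gave a check within each RNA. Of the 89 measured probe sets 70 (78.7%) were higher and 15 (16.9%) at least 2-fold higher, beside 54.1% and 6.48% of all measured probe sets with 1 symbol, and 1 was at least 2-fold lower (1.12%, beside 3.76%). A gene counts once for each of its probe sets here, as Pdlim5 with 7 and Cnn3 with 6. The Actb control probe sets, all higher, are among the 89. Of 22 genes with several probe sets above the median on both arrays, 12 (54.5%) had all of them higher, beside 37.4% of 4993 genes. The 12 include Vcl, whose dimmer probe set was at a log2 ratio of 0.0073. Tagln2, Flnc and Rhoa had all of them lower, 13.6% beside 28.6%. The other 7, Tpm2, Actn1, Zyx, Vim, Srf, Rock1 and Limk1, had probe sets on both sides. In 13 of the 22 (59.1%) the brightest probe set had the lowest log2 ratio, beside 41.7% of all such genes.

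The neighbouring genes of the system were read from 5 lists, none of which shares a gene with the members. The lists were chosen with earlier results of these data known, so their shares describe the lists as chosen. Their counts are read beside the 51.6% of all measured genes that were higher and the 6.54% that were higher past 2-fold. Other known SRF targets had 19 of 25 higher (76.0%) and a median log2 ratio of 0.49. Past 2-fold, 7 were higher (28.0%) and 0 lower, where 4.34% of all measured genes were lower. Fblim1 (migfilin), which links filamin to adhesions, was 7.42-fold higher (67.5 to 501), the immediate early gene Fos 6.56-fold (162 to 1062), Tes (testin), an adhesion LIM protein, 5.55-fold (121 to 671) and Lima1, an actin bundling LIM protein, 2.63-fold (795 to 2093). On probe sets named as unique to 1 transcript alone, 4 of 19 were at least 2-fold higher and the median was 0.32. The smooth muscle gene Smtn (smoothelin) had the lowest ratio in the list, from 461 to 313.

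In the list of actin turnover and nucleation 30 of 38 genes were higher (78.9%), with a median of 0.28. Past 2-fold there were 2 (5.26%), no larger a share than over all genes. They were Tmsb4x, thymosin beta 4, which holds actin monomers (3368 to 11999, 3.56-fold), and Tmod3, which caps filament ends (689 to 1385, 2.01-fold). Tmod3 was below 2-fold with each of the 3 rescalings and with the offset. Among other adhesion genes 9 of 16 were higher (56.2%) with a median of 0.41, a share near that of all genes, and Tns1, tensin, was 3.08-fold higher (208 to 641). Of 12 other myosin genes 7 were higher (58.3%), again near the share of all genes, with Myo18a 3.65-fold (201 to 733) and Myo1e 2.71-fold (211 to 572) higher and Myh14 at least 2.17-fold lower (from 64.5 to a signal below the median).

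The 6 measured SRF partner factor genes had a median of 0.36, with Gata6 at least 4.59-fold higher and Mrtfb, the paralog of Mrtfa, 1.20-fold higher (355 to 424).

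**Figure D5:**
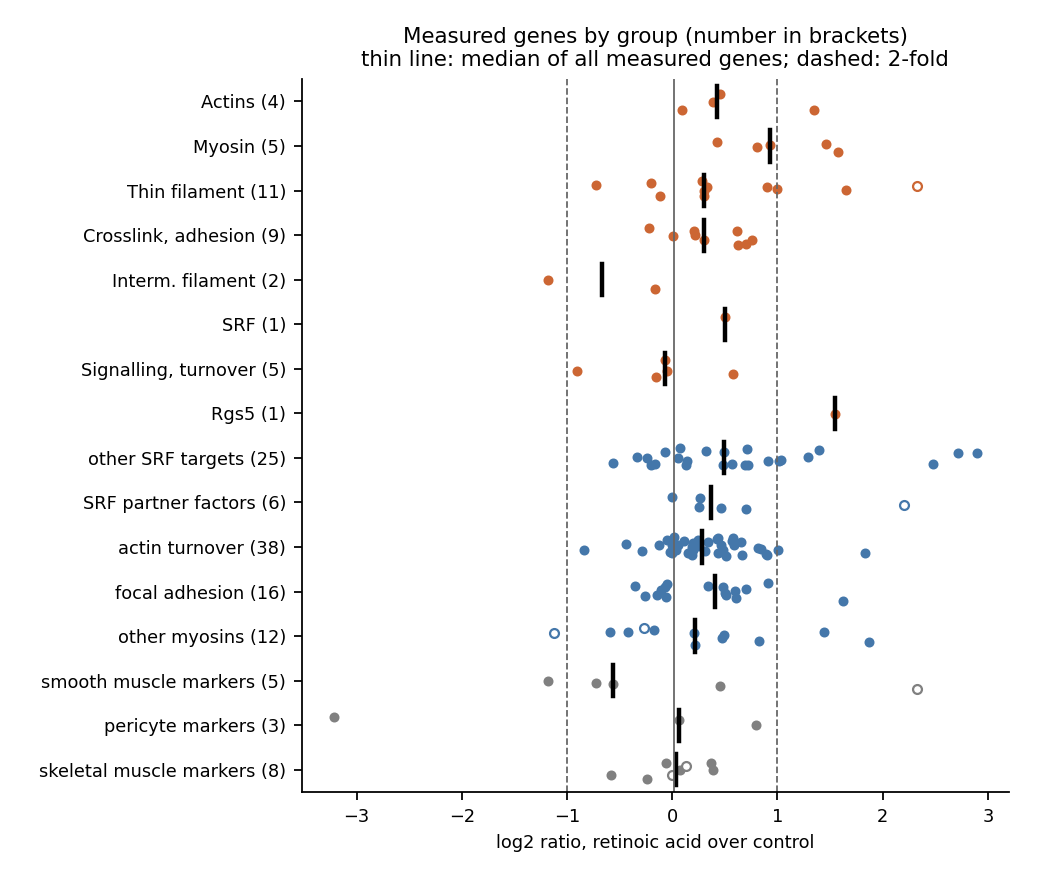
Log2 ratio of each measured gene by role group of the members (top 8 rows), list of neighbouring genes (middle 5) and marker list (bottom 3); open circles are bounds, black bars are medians and the thin line is the median of all measured genes, 0.017. The myosin group has the highest median of the groups with several genes, 0.93. The smooth muscle markers, a list without Tagln and Actg2, have a median of −0.56 over 5 genes.

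Markers of muscle, vessel, blood and tendon cells, which cells isolated from joints could include, are given beside these results. Of 8 smooth muscle markers 5 were measured, Synpo2 through the retinoic acid array alone. Only Synpo2 was at least 2-fold higher and only Des at least 2-fold lower, beside 6.54% and 4.34% of all measured genes. Summed over all 8, which weights each gene by the brightness of its probe set and includes 3 genes below the median, the signal was 3909 in control and 4919 with retinoic acid. Without Acta2 the sum was 744 and 580. The defining smooth muscle genes Myh11, Lmod1 and Myocd were below the median on both arrays, and Cnn1, Smtn and Des were lower with retinoic acid. Tagln and Actg2, smooth muscle genes among the members, are not in this marker list. They were 1.99-fold and 2.54-fold higher, so smooth muscle genes went both ways and the list median depends on the genes chosen. Of 7 pericyte markers 3 were measured. Pdgfrb, the platelet-derived growth factor receptor also found in mesenchymal cells, went from 2052 to 3555 and Notch3 was 63.3 and 66.2, while Cspg4, the NG2 proteoglycan, which chondrocytes also express, went from 789 to 84.9. Abcc9, Kcnj8, Mcam and Higd1b were below the median on both arrays.

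Of 11 skeletal muscle markers 8 were measured, 0 past 2-fold, beside 6.54% of all measured genes higher and 4.34% lower. Their summed signal was 619 and 634. Of 6 endothelial markers only Kdr was measured, through its signal of 36.6 with retinoic acid, and Pecam1, Cdh5, Tek, Tie1 and Emcn were below it on both. The 6 macrophage markers summed to 524 and 593, with Ptprc below the median on both arrays. The 6 tendon markers summed to 10955 and 5695, a sum in which Fmod alone went from 8768 to 4132. At least 2-fold lower were 3 of the 6, beside 4.34% of all measured genes. They were Fmod, Kera (a bound) and Scx, whose second probe set was at a log2 ratio of 0.28. Thbs4 and Tnmd were 1.85-fold and 1.21-fold lower, and Mkx was 1.90-fold higher (122 to 232). The part of changed cell composition in the ratios of the contractile genes was not tested beyond these values.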

How the data were processed

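Per the labels' protocols, 100 ng of total RNA from each culture was labelled with biotin for its array. The deposited values are intensities on a linear scale, the signal of MAS5, which the submitters' processing notes name. Which software version, scaling target and detection calls were applied is not given in the sources used here. The linear scale was read from the values, whose medians over all probe sets are 26.6 in control and 29.8 with retinoic acid. The arrays' scanner files were not used here. Values were used as deposited. Probe sets were named through the platform annotation. Of 45037 probe sets other than controls 34945 had 1 symbol, 932 several and 9160 none. The Entrez identifiers of the members gave 0 changed symbols in RefSeq.

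Signals at or below the array median (over probe sets other than controls) were raised to it. A gene above it on 1 array has a bound, written "at least". The probe set brightest by mean log2 signal stood for its gene. Control probe sets stand for no gene. Alternatives were other floors (30th and 70th percentile, none, a common one), the median as an offset, 3 scalings (median log2 ratio of 0, quantile, loess, span 0.3), the median over probe sets, unique probe sets, genes above the median on both arrays, a 1.5-fold count and a CArG box with 1 mismatch. The direct repeat was searched after the data were seen.

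A further list of neighbouring genes is not reported here. The members and lists were chosen with earlier results of these data known. The text names all members, and from each list of neighbouring genes up to 4 with the largest ratios past 2-fold, besides the identity and treatment genes. Smtn, Mrtfb, and the members of the marker lists are named outside that rule. The counting was tested on simulated data, with changes added only to genes well above the array medians. Changes in genes with signals as low as those of Actg2, Rgs5, Synpo2 and Des were not covered. Python 3.11.15, numpy 2.4.6, pandas 2.3.3, statsmodels 0.14.6 and matplotlib 3.10.9 were used.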

Additional observations from a re-analysis of the deposited data

How the results depend on the processing

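No paired analysis was possible because each group has 1 culture, and for the same reason no replicate could be left out. The number of members at least 2-fold higher was 6. It was 3 of 35 with the floor at the 70th percentile, where Actg2, Synpo2 and Rgs5 drop below 2-fold, beside 5.32% of all genes. With 1.5-fold counted it was 14, beside 14.3%, and otherwise it was 5 or 6. With no floor 41 members have a ratio and the share of all genes was 11.7%, so the gap is smaller there. The number at least 2-fold lower was 1. It was 0 with the floor at the 70th percentile and with the median as an offset, beside 3.08% and 2.99% of all genes. With no floor it was 3 (Des, Myh11 and Myocd), beside 11.6%. With 1.5-fold counted it was 3, beside 11.4%. The median log2 ratio of 0.36 was 0.55 on unique probe sets alone, over 31 genes, and between 0.30 and 0.36 otherwise. The number of promoters with a CArG box, 6, was 9 with 1 mismatch allowed. Of the 38 measured members, 32 kept the sign of their ratio in every setting that could give one, and Actn1, Limk1, Rock1, Srf, Tpm2 and Zyx did not. Tpm1, Myl9 and Mylk stayed past 2-fold in all 11 settings. Of 407 ratios of members under these settings 393 moved by less than the scatter between probe sets, 9 moved down and 5 up. Of 330 values of the role groups and lists 34 moved, 22 of them down. Signals near the array median limit Actg2, Rgs5, Synpo2, Des and Limk1.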
